A study of Arabidopsis thaliana with 9 samples.

Results

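AT3G55580 is the Arabidopsis thaliana gene TCF1 (TOLERANT TO CHILLING AND FREEZING 1), which encodes a nuclear protein built of RCC1 repeats. It is 1 gene of the 13355 for which the annotation listed a probe set of their own, and it was followed by its lone probe set, 251793_at. Measured genes below are these 13355. A further 8730 probe sets had no listed gene, so a gene not measured in this sense may still be on the arrays. The gene name TCF1 comes from general knowledge, since the gene table used here lists only the locus. The 9 arrays measured RNA from whole wild-type seedlings, roots included, at 10 days of age. They comprised 2 arrays of the accession WS (WS2 in the ecotype label) after 24 h at 4 °C, 5 of Col-0 after 24 h at 4 °C, and 2 of Col-0 that spent that day in a new chamber at 22 °C. All seedlings had been stratified for 3 days and raised without sucrose on Gamborg's medium at 22 °C, in constant light of 60 to 80 microE. Of the cold Col-0 arrays, 2 bore the title word set 4 and 3 did not, and no WS array at 22 °C was used here, so a cold response within WS was not tested.

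RCC1 repeats fold into a bladed propeller that in many proteins binds chromatin or other proteins. In published work on Arabidopsis, TCF1 is a cold-induced protein that binds histones H3 and H4 and associates with chromatin of BCB, the gene of a blue copper-binding protein that promotes lignin formation. Plants that lack TCF1 were described there as having less lignin and surviving freezing better, and induction of TCF1 by cold as independent of the CBF transcription factors, which switch on the COR genes. The comparisons below ask how far the TCF1 transcript differs between cold and warm Col-0 and between cold WS and cold Col-0. They also ask which genes share its pattern.

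The TCF1 transcript rose in Col-0 seedlings in the cold, and its signal at 22 °C was dim. TCF1 had log2 signals of 9.13, 8.76 and 8.85 in the cold Col-0 arrays with no set name and 8.87 and 8.32 in the set 4 arrays, against 4.07 and 4.05 in the Col-0 arrays at 22 °C. The groups did not overlap, and the lowest cold array stood far above both arrays at 22 °C, while the 22 °C pair was nearly level. The mean was 8.79 ± 0.29 (SD, n = 5) in cold Col-0 and 4.06 ± 0.01 (n = 2) at 22 °C. The difference was 26.5-fold (log2 4.73, SE 0.19, 95% interval 4.30 to 5.16, limma adjusted p = 3.26e-06). A probe set is called here at a limma adjusted p under 0.05 and an absolute log2 difference of at least 1, and 5.87% of the 22746 probe sets were called higher in this comparison. Cold arrays above both arrays at 22 °C, with no overlap, occurred for 20.5% of probe sets. Over all probe sets the median log2 difference was 0.03.

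The exact permutation test over the 7 Col-0 arrays (two-sided) gave p = 0.0952 for TCF1, which is the smallest value that 5 against 2 arrays allow. Leaving out any 1 of the 9 arrays gave log2 differences of 4.64 to 4.84. On the arrays at 22 °C, 29.0% and 28.7% of probe sets were dimmer than TCF1, whereas on the cold Col-0 arrays between 84.2% and 90.5% were. The lower quartiles of the 22 °C arrays were 3.86 and 3.84. These shares place a signal on its array and do not rank transcripts. With no detection calls at hand, whether any TCF1 transcript was present at 22 °C cannot be told from these values, and if that signal is partly background the fold is too small.

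**Figure D1:**
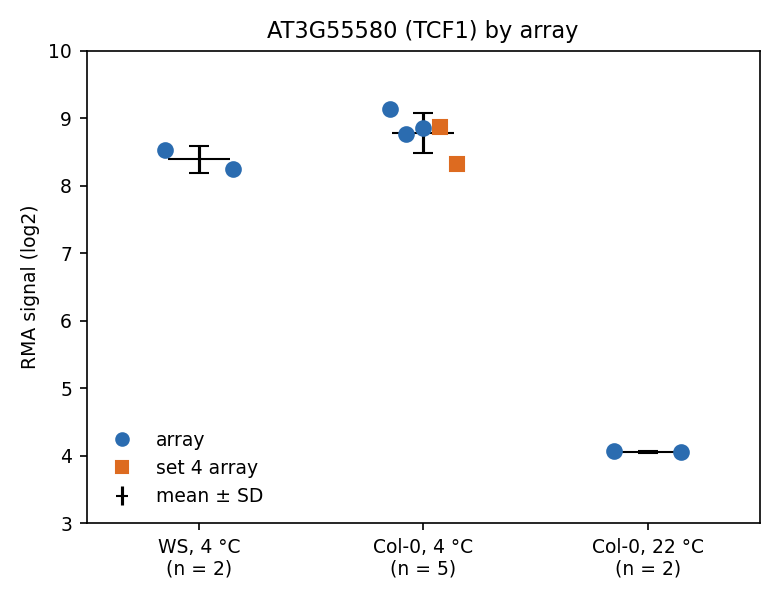
Log2 RMA signal of AT3G55580 (TCF1) on each array, grouped as WS at 4 °C, Col-0 at 4 °C and Col-0 at 22 °C, with squares for the set 4 arrays and a black bar for the mean ± SD. The 7 cold arrays lie between 8.25 and 9.13, and both arrays at 22 °C lie close to 4.06.

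Cold WS seedlings also carried the bright TCF1 signal. The WS arrays had log2 signals of 8.53 and 8.25, against 8.32 to 9.13 with a median of 8.85 in the 5 cold Col-0 arrays. The first WS array lay within the Col-0 range and the second just below it. The mean was 8.39 ± 0.19 (SD, n = 2) in WS and 8.79 ± 0.29 (n = 5) in cold Col-0, and WS minus Col-0 was -0.40 on the log2 scale (SE 0.19, limma adjusted p = 0.305). TCF1 was therefore not called between the accessions, where 1.28% of probe sets were called lower in WS and 0.857% higher. The 95% interval of the difference ran from -0.83 to 0.03, so the data allow a WS signal between 1.77-fold lower and 1.02-fold higher. Leaving out single arrays moved the difference between -0.53 and -0.26 with adjusted p from 0.0668 to 0.794. An array probe may bind RNA of another accession less well, and such a mismatch and a lower transcript level cannot be told apart here.

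Against Col-0 at 22 °C, cold WS was 20.1-fold higher (log2 4.33, SE 0.23, 95% interval 3.82 to 4.85, limma adjusted p = 7.9e-06). In this comparison 6.82% of probe sets were called higher, and 34.5% had both WS arrays above both arrays at 22 °C. It differs from the others in both accession and temperature, and it shares arrays with each of them. The exact permutation test gave p = 0.333, the smallest that 2 against 2 arrays allow. The order of the groups was thus cold Col-0 (8.79), cold WS (8.39) and Col-0 at 22 °C (4.06), of which the first pair did not differ beyond the spread of their arrays and the third stood apart.

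Within cold Col-0, the set 4 arrays averaged 8.60 and the other cold arrays 8.91, and the difference was -0.32 on the log2 scale (SE 0.19, limma adjusted p = 0.585). TCF1 was not called there, where 0.0044% of probe sets were called. The 2 set 4 arrays themselves differed more than the 2 subsets did, since they held 8.87 and 8.32. Without the second set 4 array the set difference was -0.04, and without the first it was -0.59.

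TCF1 ranked high among cold-raised genes, and its pair of arrays at 22 °C was among the closest for the strongest of them. Of the 13355 genes, TCF1 had the rank 5 by log2 difference in cold Col-0, below AT1G16850 (6.15), COR15A (6.06), COR15B (5.45) and AT1G51090 (5.24), and the rank 2 by limma p-value. Over all 22746 probe sets, which include those with no listed gene or several, its ranks were 11 and 6. The ranks among genes moved with single arrays: leaving out 1 array gave ranks of 4 to 10 by log2 difference, the 10 without replicate 2 at 22 °C, and of 1 to 17 by p-value. AT1G16850 is named because it stands above TCF1 and was chosen after its value was seen. COR15A and COR15B encode chloroplast proteins that stabilise membranes during freezing. COR15A had 6.42 and 8.32 on the arrays at 22 °C, a gap of 1.90, and COR15B a gap of 1.81, whereas TCF1 had a gap of 0.02. Among the 35 genes called with a log2 difference of at least 3, the median gap between the 22 °C arrays was 0.54, and 0 of them had a smaller gap than TCF1. The gap of AT2G22590 was all but equal (0.021, beside 0.020 for TCF1), and AT1G73480 had 0.068, so a level pair was not particular to TCF1. COR15A and COR15B had gaps among the widest of the 35. Over all probe sets the median gap was 0.21. The cold Col-0 arrays were less tight for TCF1, with a range of 0.81 beside a median of 0.85 for those 35 genes and 0.44 for all probe sets. TCF1 signals at 22 °C lay just above the lower quartile of their arrays, and the part of dimness in the small gap was not tested.

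**Figure D2:**
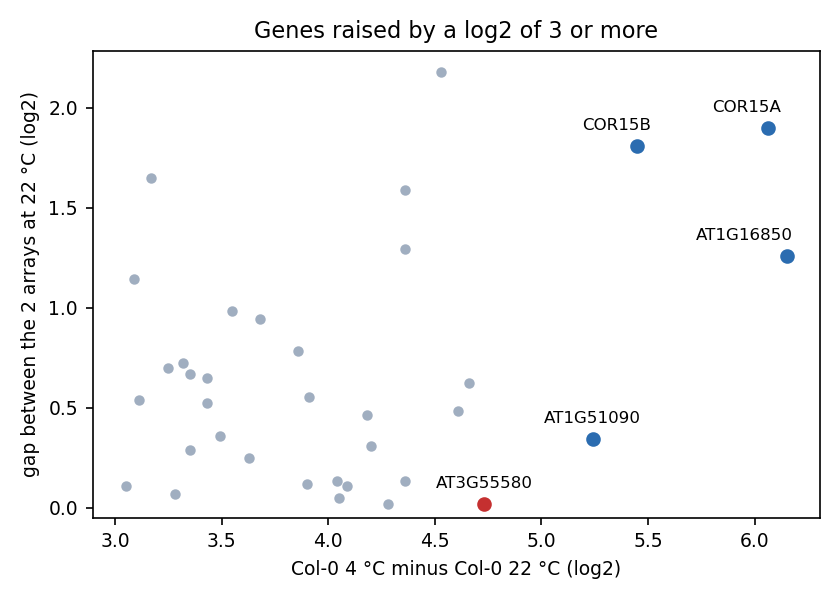
Each point is 1 of the 35 genes called higher in cold Col-0 by a log2 difference of at least 3, with that difference on the x axis and the absolute log2 gap between the 2 Col-0 arrays at 22 °C on the y axis. AT3G55580 lies at 4.73 with a gap of 0.02, while COR15A and COR15B lie at gaps of 1.90 and 1.81.

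Other RCC1 repeat genes were called in both directions in the cold, and none rose as far as TCF1. A list of 24 Arabidopsis genes, taken from general knowledge of which encode RCC1 repeats, held 17 with a probe set of their own, TCF1 included, and the other 7, among them the ultraviolet-B receptor gene UVR8, were not analysed here. Of the other 16, 2 were called higher and 2 lower in cold Col-0, against 5.87% and 6.09% of all probe sets. Their median log2 difference was 0.07, beside 0.03 for all probe sets, and they ranged from -1.26 to 1.72. TCF1, at 4.73, lay above the highest of them.

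AT5G16040 was the RCC1 gene with the largest difference after TCF1. It had log2 signals between 8.30 and 8.72 with a median of 8.61 in cold Col-0, against 6.83 and 6.86 at 22 °C. The groups did not overlap, and the pair at 22 °C was nearly level. AT5G16040 rose 3.3-fold (log2 1.72, SE 0.13, limma adjusted p = 2.25e-05). Cold WS had 8.28 and 8.15, both below every cold Col-0 array, but the log2 difference of -0.35 was not called (adjusted p = 0.167). Arrays of WS below all cold Col-0 arrays occurred for 11.3% of probe sets.

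AT1G19880 was called higher in cold Col-0, at 7.94 ± 0.21 against 6.93 ± 0.09 at 22 °C (log2 1.01, SE 0.16, limma adjusted p = 0.00129). AT3G02300 was called lower, at 6.73 ± 0.19 against 7.99 ± 0.28 (log2 -1.26, SE 0.16, limma adjusted p = 0.000379). AT3G26100 was called lower too, at 6.76 ± 0.27 against 7.77 ± 0.37 (log2 -1.01, SE 0.22, limma adjusted p = 0.00711). The calls of AT1G19880 and AT3G26100 sat at the fold minimum. Without replicate 2 at 22 °C they had log2 differences of 0.94 and -0.75, and when replicate 2 of cold Col-0 was left out 0.97 and -0.90, and neither was called in either case. AT1G19880 also missed the call when replicate 3 of cold Col-0 was left out (0.95), as did AT3G26100 when the second set 4 array was (-1.0, just short of the minimum). The members with the largest differences among those not called were AT3G15430 (log2 0.75, adjusted p = 0.0148) and AT1G27060 (log2 -0.50, adjusted p = 0.0088).

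Between the accessions in the cold, 1 of the 16 other RCC1 genes was called, and it was lower in WS, as were 1.28% of all probe sets. AT5G11580 had 5.86 and 5.88 in WS, against 6.99 to 7.40 with a median of 7.06 in cold Col-0. Both WS arrays stood well below the lowest Col-0 array. Here too, a probe mismatch in WS and a lower transcript level cannot be told apart. WS minus Col-0 was -1.24 on the log2 scale (SE 0.13, limma adjusted p = 0.000863), and AT5G11580 was not called for cold in Col-0 (log2 -0.50, adjusted p = 0.0174). The median of the 16 genes was -0.04, beside 0.01 for all probe sets. AT1G19880, at -0.57 (adjusted p = 0.0807), and AT3G26100, at 0.39 (adjusted p = 0.387), had the next largest differences. PRAF1, a protein with RCC1 repeats and a phosphoinositide-binding domain, had log2 differences of -0.03 in the cold and -0.18 between accessions (adjusted p = 0.95 and 0.759). It is named as the 1 member with a symbol and was chosen after its values were seen.

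**Figure D3:**
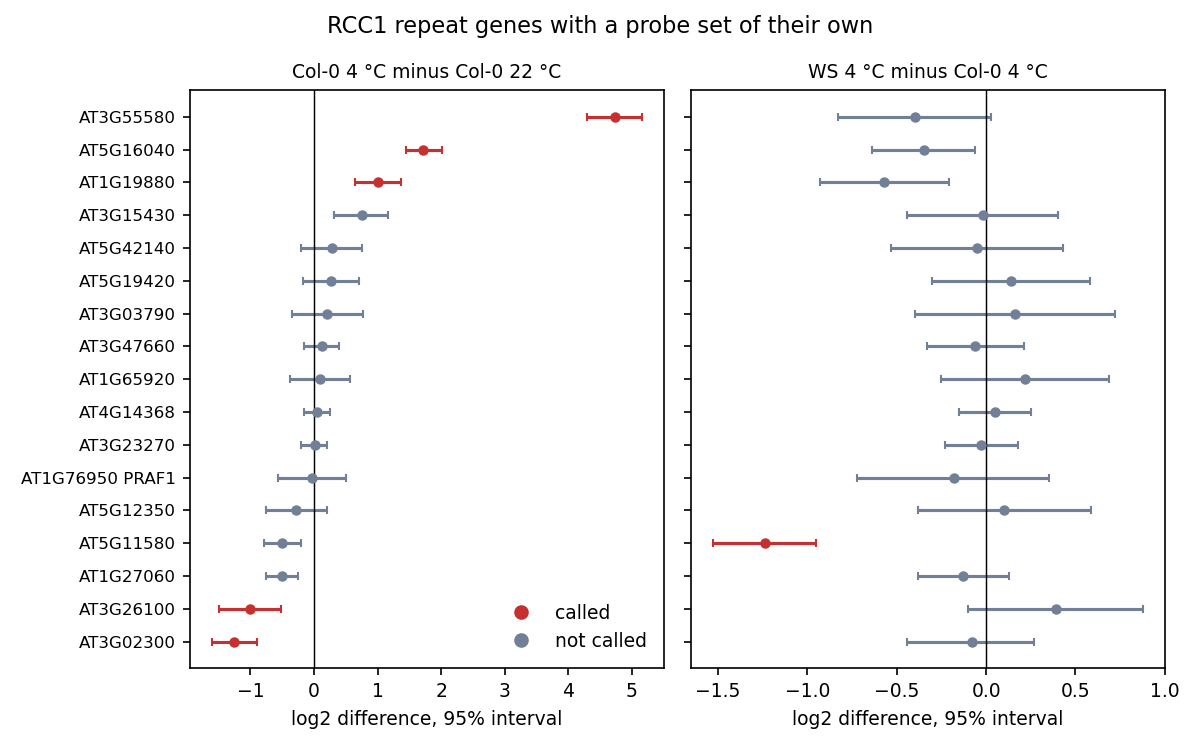
Log2 differences with 95% intervals from limma for the 17 measured RCC1 repeat genes, for cold against 22 °C in Col-0 on the left and WS against Col-0 in the cold on the right, with called genes in red. AT3G55580 lies alone at 4.73 on the left, and AT5G11580 is the 1 called gene on the right, at -1.24.

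Few genes of the pathway that TCF1 is known to act on were measured. BCB, the phenylalanine ammonia-lyase genes and most of the lignin pathway had no listed probe set of their own, so 3 of 24 genes on that list were measured, and 0 of the 3 were called in cold Col-0 by limma, where 5.87% of all probe sets were called higher and 6.09% lower. All 3 had an unadjusted p under 0.05, as did 37.2% of all probe sets. HCT, a transferase early in lignin precursor synthesis, had 9.53 to 9.67 in cold Col-0 with a median of 9.59, against 10.51 and 10.01 at 22 °C. All cold arrays lay below both arrays at 22 °C, as they did for 19.2% of probe sets, and the log2 difference of -0.67 was under the fold minimum (SE 0.14, limma adjusted p = 0.00701). CYP84A4, a cytochrome P450 related to ferulate 5-hydroxylase, had a log2 difference of -0.68 (SE 0.16, adjusted p = 0.0102), likewise under the minimum. CCR2, a cinnamoyl-CoA reductase that makes lignin precursors, had 0.71 (SE 0.28, adjusted p = 0.0925). At an adjusted p under 0.05 with no fold minimum, 2 of the 3 counted, HCT and CYP84A4, both lower in the cold. At that threshold 6478 of the 22746 probe sets counted, in either direction. In the cold, WS minus Col-0 was 0.89 for CCR2 (limma adjusted p = 0.116), 0.53 for CYP84A4 (0.0959) and -0.14 for HCT (0.671). Of the 3, 0 were called by limma, beside 1.28% of all probe sets called lower in WS and 0.857% higher. An unadjusted p under 0.05 was found for 2 of the 3, beside 19.2% of all probe sets. CCR2 was called in cold WS against Col-0 at 22 °C, where the log2 value was 1.60 (SE 0.33, limma adjusted p = 0.00662), with 6.17 on each WS array against 4.45 and 4.70. Of all probe sets, 6.82% were called higher there.

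The 16 listed genes of histones H3 and H4, which TCF1 is known to bind, had no listed probe set of their own. Of 27 genes for enzymes, complex subunits and readers of methylation at 2 lysines of histone H3, 4 were measured. Of these, 0 were called in cold Col-0 by limma and 0 had an unadjusted p under 0.05, beside 37.2% of all probe sets. Over all probe sets 5.87% were called higher and 6.09% lower, so 0 of 4 says nothing particular of these genes. LDL2, a lysine demethylase homologue, had a log2 difference of -0.10 (adjusted p = 0.618), and the demethylase gene PKDM7D had -0.20 (adjusted p = 0.596). AT5G46910 and AT2G38950 had 0.07 and 0.21. Between the accessions 0 of the 4 were called by limma, where 1.28% of all probe sets were called lower in WS and 0.857% higher. AT2G38950 was the 1 with an unadjusted p under 0.05, beside 19.2% of all probe sets. It had 6.82 and 6.39 in WS against 7.10 to 7.74 in cold Col-0 (log2 -0.74, limma adjusted p = 0.0559).

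The COR genes and TCF1 were both called higher in the cold. All 6 measured COR genes of 15 listed were called higher in cold Col-0, beside 5.87% of all probe sets, with a median log2 difference of 3.76. The log2 difference of TCF1 was 4.73, beside 4.53 for the dehydrin LTI30, 2.99 for COR47, 2.62 for COR27 and 1.96 for AT4G33980. The order of TCF1 and LTI30 rested on 1 array, since LTI30 had 5.61 without replicate 2 at 22 °C and 3.44 without replicate 1, where TCF1 had 4.72 and 4.74. LTI30 had 7.83 and 10.00 on the arrays at 22 °C and COR27 6.08 and 7.40, with replicate 2 the higher array in each as it was for COR15A. TCF1 had 4.07 in replicate 1 and 4.05 in replicate 2, signals so near the lower quartile of their arrays that a step between these arrays might not show. STZ, a zinc finger repressor of the cold and salt response and the 1 measured CBF pathway regulator of 18 listed, had 6.39 to 7.41 in cold Col-0 against 5.12 and 6.22 at 22 °C (log2 1.31, SE 0.37, limma adjusted p = 0.0263). STZ was not called without replicate 1 at 22 °C (adjusted p = 0.29), nor when replicate 1 (0.0541) or replicate 3 (0.0515) of the cold arrays was left out. CBF1, CBF2 and CBF3 had no listed probe set of their own. Between cold WS and cold Col-0, 0 of the 6 COR genes were called by limma, beside 1.28% of all probe sets called lower in WS and 0.857% higher. Of the 6, 0 had an unadjusted p under 0.05, beside 19.2% of all probe sets. Their median was -0.02, beside -0.40 for TCF1.

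The genes whose signals followed TCF1 most closely over the 9 arrays were mostly loci without a symbol. Likeness was measured by Pearson's r of the log2 signals over the 9 arrays, among 13354 other genes. The arrays form a cold and a warm cluster, so r mainly reflects the step between them: 296 genes had r over 0.95. The coefficient over the 7 cold arrays alone, which share their treatment, is therefore given beside it. AT1G73480 was closest (r = 0.9984, and 0.913 over the cold arrays), followed by AT1G51090 (0.9950 and 0.738), AT3G01820 (0.9932 and 0.875), AT3G03060 (0.9932 and 0.565), AT3G55760 (0.9931 and 0.753), AT1G21790 (0.9928 and 0.701), AT4G36010 (0.9923 and 0.637) and AT1G30960 (0.9919 and 0.523). This choice of 8 was not stable: 2 to 5 of them remained among the 8 when 1 array was left out. By Spearman's rho, or over the 7 cold arrays alone, 0 remained. AT5G16040 of the RCC1 family came at rank 16 by r (0.991) and had 0.963 over the cold arrays, where the highest value for any gene was 0.967. It is named as the family member with the highest r. The other members ran from 0.867 (AT3G15430) to -0.953 (AT3G02300) over the 9 arrays. Over the cold arrays they ran from 0.734 (AT1G19880) to -0.845 (AT4G14368).

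AT1G73480 had 9.24 to 9.83 with a median of 9.72 in cold Col-0, against 6.39 and 6.32 at 22 °C. It rose 9.74-fold (log2 3.28, SE 0.16, limma adjusted p = 4.45e-06), and in WS it had 9.45 and 9.40. As for TCF1, the second set 4 array was its lowest cold Col-0 array and the 22 °C arrays were nearly level. That cold array was also the lowest, or level with the lowest, for the rest of the 8 and for AT5G16040 and COR27. It was not the lowest for AT1G80130 or AT2G22590. A low value there was thus not particular to TCF1 and AT1G73480. AT1G51090 rose 37.9-fold (log2 5.24, SE 0.24, limma adjusted p = 3.6e-06) and the other 6 rose by log2 2.18 to 4.18. None of the 8 was called between the accessions, with log2 differences from -0.35 (AT3G55760) to 0.01 (AT1G30960). Of all probe sets, 1.28% were called lower in WS there and 0.857% higher.

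By size as well as shape, the smallest root mean square difference of mean-centred log2 signals from TCF1 belonged to BETA-VPE, a vacuolar processing enzyme that matures vacuolar proteins (0.298), then AT4G36010 (0.300), AT1G80130 (0.300), AT2G22590 (0.323) and AT3G55760 (0.328). AT4G36010 and AT3G55760 were thus chosen by both measures. AT2G22590 had 4.30 and 4.28 on the arrays at 22 °C, as level as TCF1, and 8.17 to 9.02 in cold Col-0. BETA-VPE had 9.65 to 9.94 in cold Col-0, against 4.78 and 5.41 at 22 °C, and its WS arrays held 9.81 and 8.78. At the opposite end, AT3G17380 (r = -0.9953), AT1G15740 (-0.9948) and AT2G42690 (-0.9947) had their highest signals where TCF1 had its lowest. AT1G15740 fell by 2.66 on the log2 scale and AT2G42690 by 2.53 (limma adjusted p = 6.07e-06 and 3.6e-06), whereas AT3G17380 had a log2 difference of -0.78, under the fold minimum (adjusted p = 0.000267). AT3G17380 was dim, at 3.67 to 3.80 on the cold arrays, whose lower quartiles ran from 3.77 to 3.93. The part of dimness in its r was not tested.

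**Figure D4:**
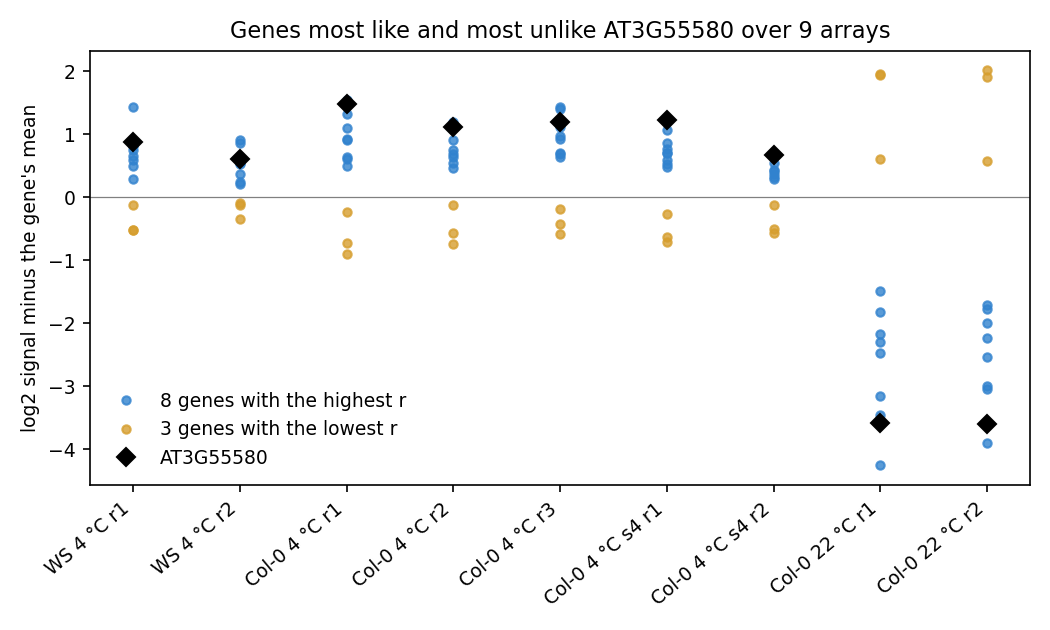
Log2 signal minus each gene's own mean over the 9 arrays, for AT3G55580 (black), the 8 genes with the highest Pearson r to it (blue) and the 3 with the lowest (yellow), with arrays ordered as WS at 4 °C, Col-0 at 4 °C (s4 marks set 4) and Col-0 at 22 °C. The black and blue points are above 0 on all 7 cold arrays and below 0 on both arrays at 22 °C, and the yellow points are the reverse.

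The measured genes near TCF1 on chromosome 3 included 1 that was called in the cold. Neighbours were taken by the order of genes in the RefSeq table, as the 5 nearest on each side with a probe set of their own, which lay 2 to 23 positions away. In cold Col-0, 1 of the 10 was called, RBL (REBELOTE, a nucleolar protein), 14 positions before TCF1, with 8.88 to 9.19 in cold Col-0 against 6.40 and 6.88 at 22 °C. RBL rose 5.39-fold (log2 2.43, SE 0.15, limma adjusted p = 1.07e-05). With 5.87% of all probe sets called higher and 6.09% lower, 1 of 10 is near the rate over the whole array. The nearest measured gene, AT3G55590, 2 positions after TCF1, had a log2 difference of 0.07 (SE 0.11, adjusted p = 0.713), and the next, AT3G55600, had 0.08. AT3G55590 was dim throughout, at 4.03 to 4.37, so a difference near 0 need not mean a level transcript. AT3G55605 lay just under the fold minimum, at 0.98 (adjusted p = 0.000547), and was called without replicate 2 at 22 °C (1.11) and when replicate 1, 2 or 3 of the cold arrays was left out (1.02, 1.0 and 1.0). AT3G55520 had 0.89 (adjusted p = 0.0185) and was called at 1.29 without replicate 2 at 22 °C. The rest were not called, from -0.50 for AT3G55470 to 0.60 for AT3G55640.

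Between the accessions in the cold, where 0.857% of all probe sets were called higher in WS and 1.28% lower, AT3G55470 was the 1 called neighbour. It had 6.86 and 7.01 in WS, against 5.37 to 6.15 with a median of 5.79 in cold Col-0, and WS minus Col-0 was 1.18 on the log2 scale (SE 0.19, limma adjusted p = 0.00958). Both WS arrays above all cold Col-0 arrays occurred for 12.1% of probe sets. It was not called without either WS array (adjusted p = 0.0508 and 0.0991). EXPA16, an expansin that loosens cell walls, had 5.69 and 6.0 in WS against 4.51 to 5.53 in cold Col-0 (log2 1.03, SE 0.25, limma adjusted p = 0.0533). Without replicate 3 of cold Col-0, which held the 5.53, EXPA16 was called (log2 1.20, adjusted p = 0.00334). AT3G55760, among the 8 genes with the highest r to TCF1 (0.9931, and 0.753 over the cold arrays), lay 33 positions after TCF1.

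**Figure D5:**
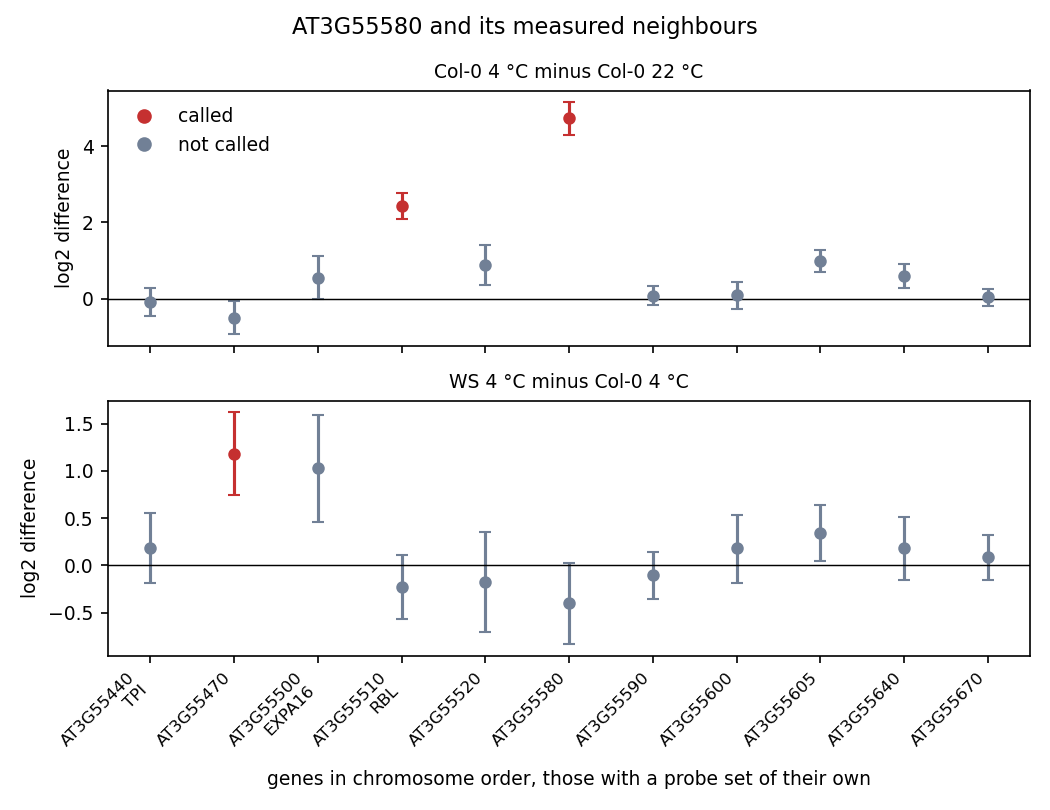
Log2 differences with 95% intervals from limma for AT3G55580 and its 10 nearest measured genes in the order of chromosome 3, for cold against 22 °C in Col-0 above and WS against Col-0 in the cold below, with called genes in red. AT3G55580 and RBL are the called genes in the upper panel, at 4.73 and 2.43, and AT3G55470 is the 1 in the lower panel, at 1.18.

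Replicate 3 of cold Col-0 had an array median of 6.06, whereas the medians of the other 8 arrays ran from 5.81 to 5.88, and its TCF1 signal of 8.85 was the median of its group. Of 5 measured root markers, 1, NAI2, was called lower in cold Col-0 (log2 -1.39, limma adjusted p = 0.00188), and the other 4 were not called, at -0.63 to 0.97. Over the 9 arrays PYK10 had signals of 11.20 to 12.21, EXPA7 4.69 to 6.35, NAI2 7.35 to 9.42, AT5G66390 5.86 to 8.78 and AT3G01190 7.17 to 9.93. The antenna gene LHCB4.2, the 1 measured marker of green tissue, was called lower in cold Col-0 as well (log2 -1.86, adjusted p = 0.00123). Of all probe sets, 6.09% were called lower in that comparison and 5.87% higher. Between the accessions 0 of these 6 markers were called by limma, beside 1.28% of all probe sets called lower in WS and 0.857% higher. Of the 6, 3 had an unadjusted p under 0.05, beside 19.2% of all probe sets. These were the root markers AT5G66390 and AT3G01190, with WS minus Col-0 of 1.21 and 1.35 on the log2 scale (adjusted p = 0.187 and 0.122), and LHCB4.2, with -0.94 (adjusted p = 0.107). In cold WS against Col-0 at 22 °C, 3227 of all 22746 probe sets were called in either direction, and 6.82% of all were called higher. There AT5G66390 was called higher (log2 2.18, limma adjusted p = 0.0163), and NAI2 (-1.51) and LHCB4.2 (-2.79) were called lower. Their part in the TCF1 values was not tested. AT1G03890, the 1 measured seed storage gene, was dim at 3.32 to 3.88. In RNA of whole seedlings, a higher TCF1 signal in each cell and more cells that express TCF1 cannot be told apart.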

How the data were processed

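Total RNA was biotin-labelled and hybridised to Affymetrix arrays, 1 sample per array. Per the submitters' processing notes, the authors made the deposited log2 signals by RMA with affy; versions are not given in the sources used here. Of 22810 probe sets, 64 controls were left out. Gene names came from GEO's platform annotation and the RefSeq TAIR10.1 gene table: 13513 probe sets named 1 gene (13436 matched RefSeq), 503 several and 8730 none. A gene's brightest probe set stood for it.

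Groups were compared with limma 3.58.1 in R 4.3.3 on all 9 arrays, with 6 residual degrees of freedom (5 for the set 4 comparison, which used 4 means), and Benjamini-Hochberg adjustment over 22746 probe sets. Exact permutation tests used scipy 1.17.1. The fits were tested on simulated data. Alternatives were other normalizations, filters, variance models, covariates and array subsets.

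TCF1, the gene lists and the rule for named genes (8 highest and 3 lowest r, 5 smallest root mean square differences, 5 neighbours per side, all members of lists with at most 10 measured, otherwise up to 4 called and 2 others) were chosen with earlier results of these data known. The lists of 15 freezing tolerance loci and of 5 flower markers had no gene with a listed probe set. Nothing in the labels states that the arrays within a group were grown as separate cultures. The p-values thus reflect the spread among these arrays alone, which may be technical. The number of arrays limits the precision.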

Additional observations from a re-analysis of the deposited data

Results flagged for a closer look

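Among the 5 cold Col-0 arrays, 3 of the 62 genes examined had 1 array far from the other 4, by a gap of more than 0.71 of the group's range (Dixon's limit), where chance gives about 1 in 20. TCF1 was not among them. The RCC1 gene AT5G11580 had 7.40 in set 4 replicate 1, beside 6.99 to 7.06 in the others. The lignin gene CCR2 had 4.44 in replicate 2, beside 5.4 to 5.55. EXPA16, a neighbour of TCF1, had 5.53 in replicate 3, beside 4.51 to 4.73.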

How the results depend on the processing

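TCF1 kept its direction and its side of the threshold in each limma alternative of the 3 group comparisons, at log2 4.64 to 4.85 for cold Col-0, -0.53 to -0.26 for WS against cold Col-0 (adjusted p 0.0668 to 0.794) and 4.19 to 4.47 for cold WS against 22 °C. The set 4 difference ran from -0.59 to -0.04. By the exact permutation test the differences of 4.73 (p = 0.0952) and 4.33 (p = 0.333) did not pass, since so few arrays cannot reach 0.05. The correlation of replicate 1 minus replicate 2 between sets had mixed signs and lay between -0.3182 and 0.2358. It cannot tell whether equal replicate numbers mark a shared batch, since differences between single arrays enter it too. With the replicate number as a replicate block TCF1 had log2 4.71, -0.38 and 4.33, with the same calls; AT3G55605 was then called in the cold (1.0), AT1G19880 was not (0.95, and 1.0 but just short with array medians subtracted), and EXPA16 was called between accessions (1.20). EXPA16 was also called after quantile normalization (1.07), with array medians subtracted (1.06), without dim probe sets (1.03) and with a trended, robust variance (1.03).

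With no fold minimum, called probe sets numbered 6478 rather than 2721 for cold Col-0, 1083 rather than 486 for WS against cold Col-0 and 6228 rather than 3227 for cold WS against 22 °C; RCC1 genes in cold Col-0 numbered 8 rather than 5, and lignin genes 2 in cold Col-0 (0 otherwise) and 2 in cold WS against 22 °C (1 otherwise). Leaving out 1 array gave 2514 to 2873, 285 (without WS replicate 2) to 549 and 2809 to 3404 called probe sets, 3 to 5 RCC1 genes and 0 to 1 CBF pathway genes in cold Col-0, and 1 to 2 lignin genes and 0 to 1 CBF pathway genes in cold WS against 22 °C. Of the 8 genes with the highest r, 2 to 5 remained among the 8 without 1 array, 0 by Spearman's rho and 0 over the 7 cold arrays alone. The cause of these shifts was not tested.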
